A study of Mus musculus with 47 samples.

Results

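The genes described here are 10 carriers that take amino acids across the cells of the kidney proximal tubule, named as a list of known carriers, with no threshold on their values. They are Slc3a1, Slc7a9, Slc7a13, Slc7a7, Slc7a8, Slc7a12, Slc6a19, Slc6a18, Slc6a20b and Slc1a1, 10 of the 22474 genes in the table, and all 10 passed the filter on low counts that left 18786 genes for testing. The list was chosen with earlier results of these data known, so its shares beside those of all genes are descriptions and not tests. The study sequenced polyadenylated RNA from mouse kidneys, which the labels call metanephros, of 3 inbred strains: NZO/HlLtJ, an obesity-prone strain, CAST/EiJ, a wild-derived strain, and C57BL/6J. Females and males of each strain ate a diet labelled 44% or 10% fat, with fiber named in the label of both diets, from 6 weeks of age, and kidneys were collected at 15 weeks. The labels call every mouse wild type and untreated, so diet is the only intervention. Strain, sex and diet together made 12 groups, with 4 libraries in each but CAST/EiJ males on 10% fat, which had 3, and 47 libraries in all.

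Amino acids that pass the glomerular filter are taken back almost wholly by the proximal tubule. Carriers in the luminal brush border bring them into the cell, and other carriers in the basolateral membrane pass them on to the blood. Several of these carriers are heteromers, in which a light chain that does the transport is joined by a disulfide bond to a heavy chain that brings it to the membrane. The early tubule takes up most of the filtered load, and the late straight segment, called S3, recovers what is left.

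Slc3a1 is the heavy chain and Slc7a9 the light chain of the luminal exchanger for cystine and the basic amino acids, whose loss gives cystinuria. Slc7a7 and Slc7a8 are light chains of basolateral exchangers. RefSeq promoter entries of build GRCm38.p6 were matched by symbol for 7 of the 10 genes, namely Slc3a1, Slc7a9, Slc7a7, Slc7a8, Slc6a19, Slc6a20b and Slc1a1, and 5 of them are shown as the 250 bases before the start, 5′ to 3′ on the gene's own strand. They are shown so that the promoters of heteromer subunits can be compared letter by letter, with that of the luminal carrier Slc6a19 beside them. Capitals mark the letters of 4 motifs searched on either strand. CAAAGTCCA is of the type bound by the tubular factor HNF4A, AGAACA is a core of androgen receptor elements, GTTAAT is a core of HNF1 sites, and TATAAA is the core promoter box bound by TBP.
Slc3a1 (chr17:85028097-85028346, plus strand): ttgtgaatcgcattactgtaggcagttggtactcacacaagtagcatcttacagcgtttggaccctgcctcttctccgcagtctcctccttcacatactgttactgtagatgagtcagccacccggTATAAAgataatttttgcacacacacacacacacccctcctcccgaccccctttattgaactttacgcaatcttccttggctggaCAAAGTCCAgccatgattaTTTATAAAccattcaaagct
Slc7a9 (chr7:35448842-35449091, plus strand, 1 of 2 listed starts): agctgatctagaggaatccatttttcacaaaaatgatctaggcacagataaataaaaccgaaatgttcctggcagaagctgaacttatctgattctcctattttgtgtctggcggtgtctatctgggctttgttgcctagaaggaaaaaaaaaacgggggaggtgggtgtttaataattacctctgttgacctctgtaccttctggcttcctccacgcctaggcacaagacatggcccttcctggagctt
Slc7a7 (chr14:54417945-54418194, minus strand, 1 of 5 listed starts): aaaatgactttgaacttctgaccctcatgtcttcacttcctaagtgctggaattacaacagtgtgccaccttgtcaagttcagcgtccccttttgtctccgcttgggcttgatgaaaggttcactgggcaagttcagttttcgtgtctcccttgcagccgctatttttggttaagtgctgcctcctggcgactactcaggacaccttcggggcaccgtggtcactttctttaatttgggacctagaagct
Slc7a8 (chr14:54781887-54782136, minus strand): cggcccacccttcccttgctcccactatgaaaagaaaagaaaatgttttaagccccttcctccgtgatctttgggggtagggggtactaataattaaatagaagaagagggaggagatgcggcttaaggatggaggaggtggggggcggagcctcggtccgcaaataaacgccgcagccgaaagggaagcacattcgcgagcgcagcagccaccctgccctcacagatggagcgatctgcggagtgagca
Slc6a19 (chr13:73692637-73692886, minus strand): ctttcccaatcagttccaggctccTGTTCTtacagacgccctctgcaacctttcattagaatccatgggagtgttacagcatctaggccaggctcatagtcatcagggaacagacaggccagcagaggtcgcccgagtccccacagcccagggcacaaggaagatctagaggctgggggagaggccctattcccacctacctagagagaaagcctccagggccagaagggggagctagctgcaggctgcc
In the Slc3a1 promoter CAAAGTCCA stood 39 to 31 bases before the start, and TATAAA stood at 124 to 119 bases before it and again, overlapping its own reverse, at 20 to 13. CAAAGTCCA was present in 126 of 32536 RefSeq promoter windows (0.387%), TATAAA in 12.3%, AGAACA in 16% and GTTAAT in 6.47%. The Slc6a19 window held TGTTCT, the reverse complement of AGAACA, at 226 to 221 bases before a start that lies inside the gene's span in the deposited annotation. No searched letters stood in the windows shown for Slc7a9, Slc7a7 and Slc7a8, which says only that those letters are not in these windows. The Slc7a9 window, like that of Slc6a19, lies inside the gene's span in the deposited annotation. Windows at other listed starts of Slc7a7, not printed, held AGAACA and GTTAAT. A match is a description of the sequence and not a binding site.

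Levels are given in CPM, the counts of a gene relative to the scaled size of its library. Differences are log2 fold changes with their standard error (SE) from edgeR's quasi-likelihood test, and "called" means a Benjamini-Hochberg adjusted p under 0.05 over all 18786 genes. The libraries held 34394546 to 58433712 counts (median 44759432), so even the lowest level of any of the 10 genes, 0.511 CPM of Slc7a13 in a C57BL/6J female on 10% fat, rested on 28 counts. The labels do not say whether the libraries of a group came from separate mice, so the p-values measure only the spread between these samples. Sample names fall into 3 runs of ID numbers, beginning 77, 81 and 89, which the labels do not explain, and the run was a term in the fit. Whole kidney was sequenced, so fewer cells of a type and less RNA per cell cannot be told apart in any value given here.

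Expressed per kilobase of all annotated exons of a gene, the gene at the top of the 10 differed by sex in NZO/HlLtJ and C57BL/6J. In CAST/EiJ it was Slc3a1 in both sexes. Slc3a1 was the highest in NZO/HlLtJ, CAST/EiJ and C57BL/6J females, with mean levels of 386.9, 508.6 and 364.6 CPM per kilobase. Slc7a13 was the highest in NZO/HlLtJ males (465.7 CPM per kilobase) and C57BL/6J males (458.4), and was next after Slc3a1 (572) in CAST/EiJ males (465.9). The 10 genes summed to nearly the same total in the sexes on the scaled library sizes used here. The scaling (TMM) factors were 1.003 to 1.109 in female libraries and 0.8901 to 0.9925 in male libraries. Relative to unscaled library totals, female levels would therefore stand higher and male levels lower than given. Small sex differences, such as those of Slc3a1, Slc6a20b and Slc1a1, depend on that scaling. Their summed level was 3806 ± 261 CPM in NZO/HlLtJ females and 3944 ± 220 in NZO/HlLtJ males, 4367 ± 148 in CAST/EiJ females and 4564 ± 160 in CAST/EiJ males, and 3834 ± 105 in C57BL/6J females and 3790 ± 153 in C57BL/6J males (SD, n = 8 libraries each, 7 for CAST/EiJ males). Across the 12 group means the log2 level ranged over 10.38 for Slc7a13, 7.31 for Slc7a12, 2.4 for Slc7a8 and 1.55 for Slc7a7. The narrowest ranges were those of Slc3a1 (0.81), Slc6a20b (0.77) and Slc1a1 (0.46).

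Nearly all of the 10 genes differed between the sexes, in both directions. Of the 10 genes, 5 were called higher in females than in males in all 3 strains (Slc7a12, Slc7a7, Slc7a8, Slc7a9 and Slc6a18), and 3 were called lower in all 3 (Slc7a13, Slc6a20b and Slc1a1). The share of all genes called alike in all 3 strains was not counted, so shares are given by strain. In NZO/HlLtJ 6 were called higher and 4 lower, against 25.4% and 24.5% of all genes (49.9% in either direction). In CAST/EiJ 5 were called higher and 4 lower, against 23.7% and 23.9% of all genes (47.6% in either direction). In C57BL/6J 6 were called higher and 3 lower, against 25.1% and 22.7% (47.9% in either direction). The median log2 fold change of the 10 was 0.31, 0.14 and 0.30 in NZO/HlLtJ, CAST/EiJ and C57BL/6J, beside 0.04, 0.05 and 0.05 over all genes tested.

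The widest sex differences were in Slc7a13 and Slc7a12, related light chains. Slc7a13, known in mouse as a partner of the Slc3a1 protein in the S3 segment that carries cystine and acidic amino acids, lies at chr4:19818725-19842218. It averaged 2.27 ± 0.459 CPM in NZO/HlLtJ females (SD, n = 8, with the lowest, median and highest library at 1.68, 2.24 and 2.81), against 997.1 ± 137 (761.5, 979.6 and 1182) in NZO/HlLtJ males. Values of the other genes are given in the same form, over both diets, with 7 libraries of CAST/EiJ males. In CAST/EiJ females it averaged 41.6 ± 11.8 CPM (22.8, 39.6 and 57.7), against 997.4 ± 51.2 (945.9, 1003 and 1087) in CAST/EiJ males. In C57BL/6J females it averaged 1.45 ± 0.773 CPM (0.511, 1.42 and 2.82), against 981.4 ± 82.6 (820, 966.3 and 1079) in C57BL/6J males. No female library reached a male one in any strain, and male levels were close to each other across strains while CAST/EiJ females stood above both other groups of females. Slc7a13 fell by 8.77 on the log2 scale in NZO/HlLtJ females (SE 0.16, 437-fold lower, adjusted p = 2.83e-32), by 4.60 in CAST/EiJ females (SE 0.13, 24.3-fold lower, adjusted p = 3.74e-26) and by 9.62 in C57BL/6J females (SE 0.17, 785-fold lower, adjusted p = 9.61e-33). By fold change it was the 6th, 31st and 7th lowest of the 18786 genes in NZO/HlLtJ, CAST/EiJ and C57BL/6J.

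Slc7a12, a light chain for small neutral amino acids whose heavy chain is not known, moved the other way (chr3:14480697-14505830). It averaged 292.5 ± 56.8 CPM (185.2, 313.1 and 345) in NZO/HlLtJ females, against 9.77 ± 7.10 (4.72, 7.16 and 26.9) in NZO/HlLtJ males. CAST/EiJ females averaged 477.6 ± 63.1 CPM (377.9, 483.3 and 590.3), against 52.2 ± 28.9 (26.3, 52.8 and 111.8) in CAST/EiJ males. C57BL/6J females averaged 442.3 ± 46.4 CPM (355.7, 442.5 and 507), against 4.95 ± 3.75 (0.891, 3.80 and 11.2) in C57BL/6J males. Female and male libraries did not overlap in any strain, and CAST/EiJ males, though below all females, stood above nearly all males of the other strains. Slc7a12 rose by 5.02 on the log2 scale in NZO/HlLtJ females (SE 0.34, 32.4-fold, adjusted p = 9.09e-15), by 3.16 in CAST/EiJ females (SE 0.32, 8.96-fold, adjusted p = 4.06e-10) and by 6.47 in C57BL/6J females (SE 0.36, 88.7-fold, adjusted p = 8.26e-17). By fold change it was the 29th, 68th and 10th highest gene in NZO/HlLtJ, CAST/EiJ and C57BL/6J.

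**Figure D1:**
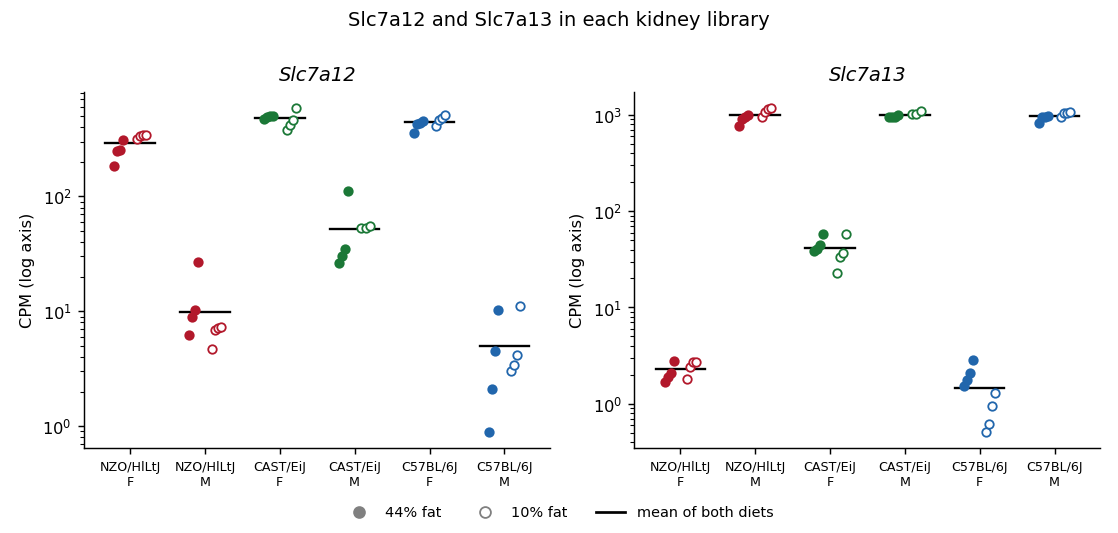
Levels of Slc7a12 and Slc7a13 in CPM on a log axis, 1 point per library, in females and males of each strain (filled points 44% fat, open points 10% fat, line at the mean of both diets). Slc7a12 stood at 185.2 CPM or more in every female library and at 111.8 or less in every male library, and Slc7a13 at 57.7 CPM or less in females and 761.5 or more in males.

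Taking the pair as a sum, Slc7a12 made up a median of 99.3% in NZO/HlLtJ females and 0.698% in NZO/HlLtJ males, 91.8% in CAST/EiJ females and 4.63% in CAST/EiJ males, and 99.7% in C57BL/6J females and 0.377% in C57BL/6J males. As a measured fact on the traces of Slc7a13 in females, its female mean was 0.228% of the male mean in NZO/HlLtJ, 4.17% in CAST/EiJ and 0.147% in C57BL/6J. For the sum of the Y-linked genes Ddx3y, Eif2s3y, Kdm5d and Uty, looked at after the Slc7a13 values were seen, the same share was 0.0529%, 0.0231% and 0.0184%. Within each of the 3 ID runs the sex difference kept its sign in every strain, between -8.91 and -8.39, -5.01 and -4.24, and -9.63 and -9.57 for Slc7a13, and between 4.31 and 5.45, 2.51 and 3.92, and 5.43 and 7.63 for Slc7a12 (log2, in NZO/HlLtJ, CAST/EiJ and C57BL/6J). In the runs beginning 81 and 89, NZO/HlLtJ females and males ate different diets, so sex differences within those runs also carry diet.

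The size of both sex differences differed between strains. The female-male difference of CAST/EiJ minus that of C57BL/6J was 5.01 for Slc7a13 (SE 0.19, adjusted p = 3.57e-21) and -3.31 for Slc7a12 (SE 0.43, adjusted p = 4.4e-07), so both gaps were narrower in CAST/EiJ. That of NZO/HlLtJ minus that of CAST/EiJ was -4.17 for Slc7a13 (SE 0.18, adjusted p = 1.41e-19) and 1.85 for Slc7a12 (SE 0.42, adjusted p = 0.00156). Between NZO/HlLtJ and C57BL/6J the gap of Slc7a13 differed by 0.85 (SE 0.21, adjusted p = 0.00899), and limma on the deposited log2 values gave 0.41 and no call (adjusted p = 0.0843). The difference of -1.45 for Slc7a12 (SE 0.43, adjusted p = 0.0426) lost its call in 21 of the 32 fits that left out 1 library, with adjusted p between 0.00634 and 0.092, and with no expression filter (adjusted p = 0.051).

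The heavy chain Slc3a1 (chr17:85028347-85064243) differed little between sexes beside its light chain Slc7a13. It averaged 878.6 ± 48.6 CPM (779.2, 883 and 930.1) in NZO/HlLtJ females and 768.4 ± 42.6 (699.7, 766.9 and 844.3) in NZO/HlLtJ males. In CAST/EiJ it averaged 1155 ± 83.3 CPM (1002, 1155 and 1283) in females and 1299 ± 42.2 (1219, 1306 and 1344) in males. In C57BL/6J it averaged 827.9 ± 27 CPM (787.3, 832.3 and 872.5) in females and 768.2 ± 30.1 (724.2, 763.5 and 812.4) in males. The ranges of the sexes overlapped in all 3 strains, and the direction in CAST/EiJ was opposite to that in the others. Slc3a1 rose by 0.19 in NZO/HlLtJ females (SE 0.04, adjusted p = 1.16e-05), fell by 0.17 in CAST/EiJ females (SE 0.04, adjusted p = 0.000184) and rose by 0.09 in C57BL/6J females (SE 0.04, adjusted p = 0.0331). The difference in C57BL/6J lost its call in 7 of 16 fits that left out 1 library (adjusted p up to 0.105), with DESeq2 size factors (0.0525), with no expression filter (0.0993), by limma (0.0525) and when C57BL/6J was fitted alone (0.0597). The female-male difference of CAST/EiJ minus that of C57BL/6J was -0.26 (SE 0.05, adjusted p = 0.000249), and that of NZO/HlLtJ minus that of CAST/EiJ was 0.36 (SE 0.05, adjusted p = 7.25e-07). Of the 31-base stretches of Slc3a1 transcripts, 25.5% also occur in Prepl, which overlaps it on the opposite strand and averaged 84.6 CPM, and whether counting used strand is not given, so how reads of the overlap were divided is uncertain.

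Slc7a9, the light chain of the cystine carrier (chr7:35448796-35466036), was higher in females throughout. It averaged 107.4 ± 11 CPM (89.3, 107.7 and 126.7) in NZO/HlLtJ females, against 67.0 ± 9.59 (56.5, 65.5 and 84.2) in NZO/HlLtJ males. It averaged 145.3 ± 13.7 CPM (126, 145.9 and 173.1) in CAST/EiJ females, against 116.2 ± 13.9 (98, 111.1 and 137.8) in CAST/EiJ males. It averaged 130.6 ± 8.12 CPM (120.6, 130.5 and 146.7) in C57BL/6J females, against 92.2 ± 11.8 (73.7, 93.1 and 111.7) in C57BL/6J males. The sexes overlapped in CAST/EiJ and not in the other strains. The log2 fold changes were 0.68 in NZO/HlLtJ (SE 0.08, 1.6-fold, adjusted p = 2.81e-09), 0.32 in CAST/EiJ (SE 0.08, adjusted p = 0.00128) and 0.49 in C57BL/6J (SE 0.08, 1.41-fold, adjusted p = 2.52e-06). The gap was wider in NZO/HlLtJ than in CAST/EiJ by 0.36 (SE 0.11, adjusted p = 0.0292), a call lost in 6 of 31 fits that left out 1 library.

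The basolateral light chains Slc7a7 and Slc7a8 were both higher in females. Slc7a7 (chr14:54369442-54417780), which exports basic amino acids and is mutated in lysinuric protein intolerance, averaged 175 ± 21.9 CPM (143.5, 169.9 and 213.5) in NZO/HlLtJ females, against 129 ± 13.8 (108.9, 128.6 and 146.4) in NZO/HlLtJ males. Its level was 303 ± 33.6 CPM (258, 288.2 and 355.1) in CAST/EiJ females, against 186 ± 22.5 (150.6, 181.6 and 216.1) in CAST/EiJ males. In C57BL/6J it was 179 ± 15.9 CPM (147.4, 182 and 199.3) in females, against 115 ± 12.1 (100.3, 111.1 and 139.3) in males. All CAST/EiJ and C57BL/6J females stood above the males of their strain, while the NZO/HlLtJ sexes met at their edges. Slc7a7 rose by 0.43, 0.70 and 0.64 in females of NZO/HlLtJ (SE 0.07, adjusted p = 4.63e-06), CAST/EiJ (SE 0.08, adjusted p = 9.48e-10) and C57BL/6J (SE 0.08, adjusted p = 3.04e-09). Oxa1l overlaps Slc7a7 on the opposite strand and shares 5.91% of its 31-base stretches.

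Slc7a8 (chr14:54722216-54781886), a basolateral exchanger of neutral amino acids, had the sex difference that varied most by strain outside the Slc7a12 and Slc7a13 pair. It averaged 158.7 ± 21.6 CPM (125.9, 155.9 and 187) in NZO/HlLtJ females, against 79.5 ± 9.66 (68.3, 76.1 and 98.3) in NZO/HlLtJ males. CAST/EiJ females averaged 250.9 ± 35.2 CPM (213, 234.6 and 310), against 214.8 ± 28.2 (182.1, 209.9 and 254.7) in CAST/EiJ males. C57BL/6J females averaged 385.4 ± 17.3 CPM (371.1, 378.5 and 421.1), against 211.6 ± 19.3 (179.7, 209.7 and 241.8) in C57BL/6J males. Females and males were well apart in NZO/HlLtJ and C57BL/6J and overlapped in CAST/EiJ. The log2 fold change was 1.00 in NZO/HlLtJ (SE 0.07, 1.99-fold, adjusted p = 2.83e-16), 0.20 in CAST/EiJ (SE 0.07, 1.15-fold, adjusted p = 0.0126) and 0.88 in C57BL/6J (SE 0.07, 1.83-fold, adjusted p = 2.04e-14). The CAST/EiJ call was lost without CAST/EiJ male replicate 3 on 10% fat (adjusted p = 0.109). The female-male difference of CAST/EiJ minus that of C57BL/6J was -0.67 (SE 0.10, adjusted p = 1.19e-06), and that of NZO/HlLtJ minus that of CAST/EiJ was 0.79 (SE 0.10, adjusted p = 2.68e-08).

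**Figure D2:**
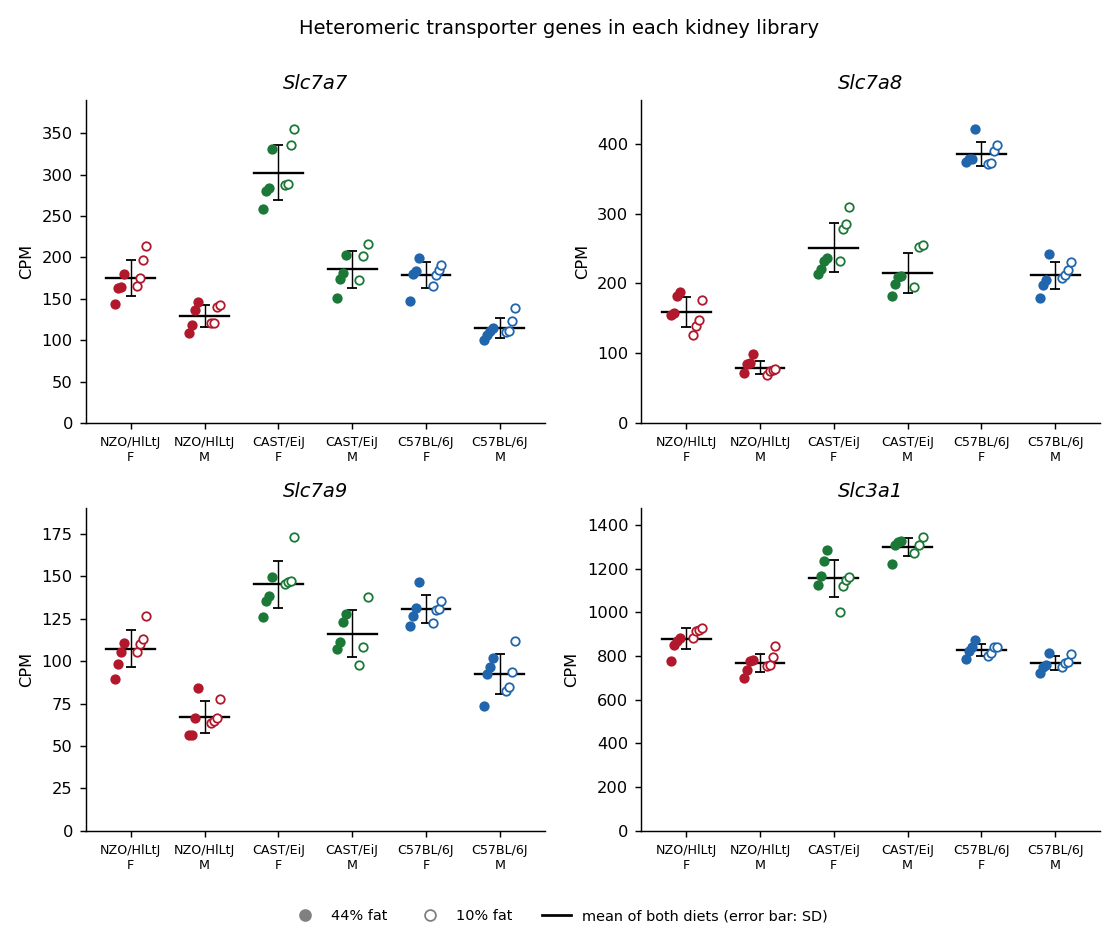
Levels of the heteromer genes Slc7a7, Slc7a8, Slc7a9 and Slc3a1 in CPM on linear axes, 1 point per library by strain and sex (filled points 44% fat, open points 10% fat, mean and SD over both diets). Slc7a8 was lowest in NZO/HlLtJ males, at 79.5 ± 9.66 CPM, and highest in C57BL/6J females, at 385.4 ± 17.3, whereas Slc3a1 was highest in CAST/EiJ of both sexes.

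The luminal carriers of the Slc6 family did not share a direction. Slc6a18 (chr13:73661750-73678023), a carrier of glycine and other neutral amino acids, averaged 1328 ± 116.7 CPM (1190, 1290 and 1524) in NZO/HlLtJ females, against 858.5 ± 37.8 (773.9, 862.7 and 890.2) in NZO/HlLtJ males. It averaged 1017 ± 78.1 CPM (911.1, 1025 and 1152) in CAST/EiJ females, against 657.2 ± 71.4 (543, 693.7 and 718) in CAST/EiJ males. In C57BL/6J it averaged 931.1 ± 84.6 CPM (807.4, 924.5 and 1060) in females, against 576.1 ± 47.3 (511.5, 560.1 and 659.5) in males. No female library of a strain met a male one, and the fold was nearly the same in all 3 strains. Slc6a18 rose by 0.63, 0.65 and 0.68 on the log2 scale in females of NZO/HlLtJ (SE 0.05, adjusted p = 7.46e-14), CAST/EiJ (SE 0.05, adjusted p = 1.4e-13) and C57BL/6J (SE 0.05, adjusted p = 1.03e-14). No difference of this gap between strains was called.

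Slc6a19 (chr13:73679745-73704865), the main luminal carrier of neutral amino acids and the neighbour of Slc6a18, had a wide spread within every group. It averaged 263.4 ± 47.8 CPM (214.1, 252.4 and 357.3) in NZO/HlLtJ females and 342 ± 77.9 (235.4, 323.1 and 442.5) in NZO/HlLtJ males. It averaged 455.9 ± 104.2 CPM (334.9, 417.3 and 613.9) in CAST/EiJ females and 426.7 ± 85.4 (333.4, 410.6 and 602.2) in CAST/EiJ males. It averaged 368.1 ± 78.5 CPM (284.4, 344.5 and 542.6) in C57BL/6J females and 340.7 ± 53.8 (274.2, 329.6 and 424.5) in C57BL/6J males. Females and males overlapped in each strain. The fall of 0.37 in NZO/HlLtJ females (SE 0.13, adjusted p = 0.0203) lost its call in 5 of 16 fits that left out 1 library (adjusted p up to 0.0637), and within ID runs it lay between -0.67 and 0.12. Both of these end values come from runs in which NZO/HlLtJ females and males ate different diets. In CAST/EiJ the difference was 0.07 (95% interval -0.21 to 0.35, adjusted p = 0.715), and in C57BL/6J it was 0.11 (95% interval -0.16 to 0.38, adjusted p = 0.529).

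Slc6a20b and the luminal glutamate and aspartate carrier Slc1a1 were lower in females of every strain, by smaller folds. The falls of both genes rest in part on the scaling factors, which were higher in female than in male libraries. Relative to unscaled library totals these falls would be smaller. Slc6a20b (chr9:123593820-123632565), of the imino acid carrier family, averaged 299.8 ± 16.4 CPM (265.4, 302.7 and 320.1) in NZO/HlLtJ females, against 339.7 ± 16.3 (311.8, 340.2 and 360.3) in NZO/HlLtJ males. CAST/EiJ females had 211 ± 23.9 CPM (182.8, 213.7 and 257.1), against 239.3 ± 14 (220.5, 244.7 and 258.6) in CAST/EiJ males, and C57BL/6J females had 257.3 ± 7.42 (241.5, 258.1 and 265.6), against 324.4 ± 9.33 (313.9, 322.9 and 344.6) in C57BL/6J males. The sexes were fully apart in C57BL/6J and overlapped in the other strains. Slc6a20b fell by 0.18 in NZO/HlLtJ females (SE 0.04, adjusted p = 0.000337), by 0.17 in CAST/EiJ females (SE 0.04, adjusted p = 0.00105) and by 0.35 in C57BL/6J females (SE 0.04, adjusted p = 5.47e-09). Reads of Slc6a20b are uncertain in part, because 20.5% of its 31-base stretches also occur in Sacm1l, which overlaps it on the opposite strand, and 9.27% in its close copy Slc6a20a.

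Slc1a1 (chr19:28835049-28913960) averaged 299.6 ± 20.3 CPM (256.2, 307.2 and 316.9) in NZO/HlLtJ females, against 352.6 ± 23.3 (318.9, 356.9 and 381.8) in NZO/HlLtJ males. It averaged 309.6 ± 24 CPM (271, 309.3 and 354.3) in CAST/EiJ females, against 374.9 ± 29.7 (335.8, 379.7 and 421.5) in CAST/EiJ males, and 311 ± 17.6 (292.8, 308.4 and 346.8) in C57BL/6J females, against 376.5 ± 9.83 (362.5, 377.5 and 389.7) in C57BL/6J males. The levels of each sex were close in all 3 strains, and the sexes did not overlap in NZO/HlLtJ and C57BL/6J. Slc1a1 fell by 0.24, 0.28 and 0.28 in females of NZO/HlLtJ (SE 0.05, adjusted p = 5.13e-05), CAST/EiJ (SE 0.05, adjusted p = 5.34e-06) and C57BL/6J (SE 0.05, adjusted p = 5.15e-06). An opposite-strand gene, 4430402I18Rik, shares 31.4% of the 31-base stretches of Slc1a1 but averaged only 4.47 CPM.

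**Figure D3:**
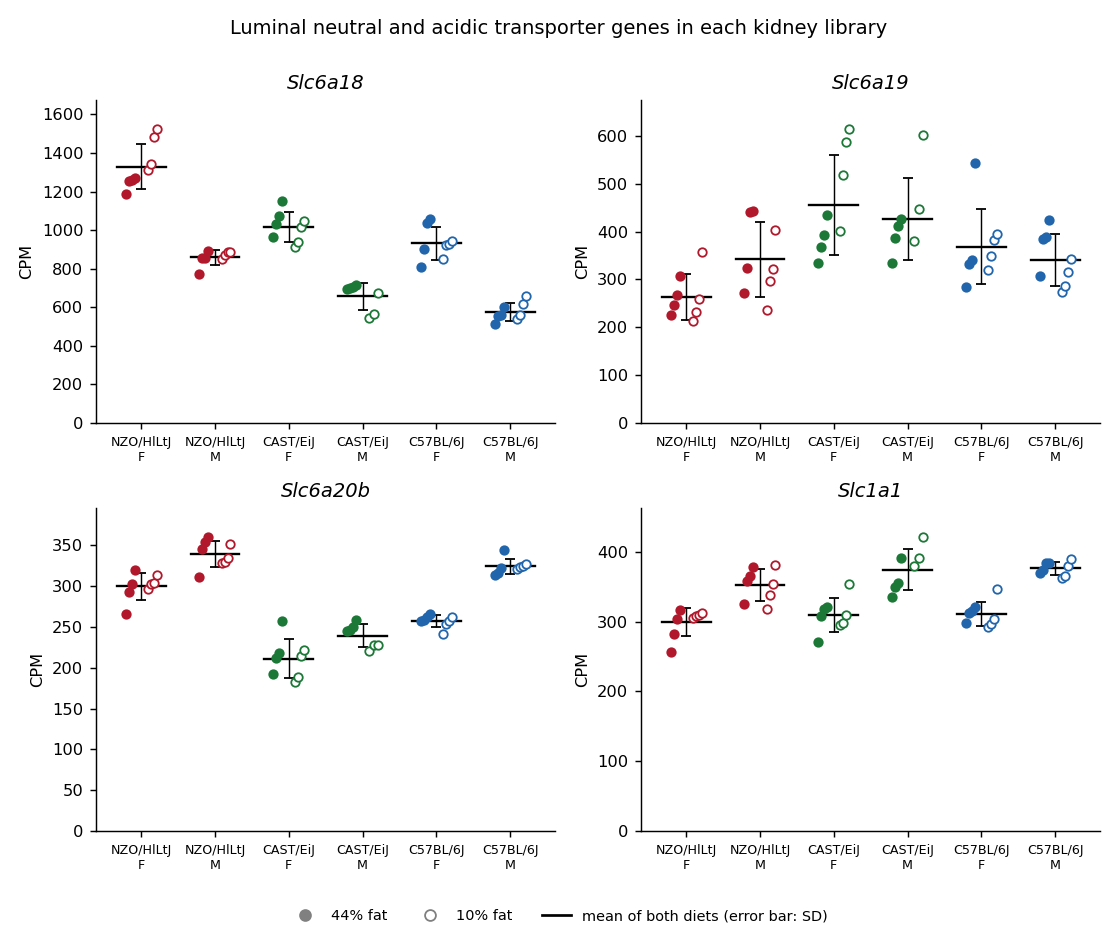
Levels of the luminal carriers Slc6a18, Slc6a19, Slc6a20b and Slc1a1 in CPM on linear axes, 1 point per library by strain and sex (filled points 44% fat, open points 10% fat, mean and SD over both diets). Slc6a18 was higher in all females than in all males of the same strain, and Slc6a19 overlapped between sexes in all 3 strains.

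Counted by ranges over all libraries of a sex, 6 of the 10 genes did not overlap between females and males in NZO/HlLtJ, 4 in CAST/EiJ and 8 in C57BL/6J, against 17.2%, 17.2% and 22.7% of all genes tested. Slc7a12, Slc7a13 and Slc6a18 were separated in all 3 strains, and the share of all genes so separated was not counted. All genes but Slc6a19 kept the sign of their sex difference in each of the 3 ID runs of each strain. In tests of the difference between strains, 2 of the 10 genes had a sex difference that differed between NZO/HlLtJ and C57BL/6J, against 4.95% of all genes, 4 between CAST/EiJ and C57BL/6J, against 13.2%, and 5 between NZO/HlLtJ and CAST/EiJ, against 14.3%. Between CAST/EiJ and C57BL/6J, DESeq2's Wald test and limma each called 5, with Slc6a20b added.

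**Figure D4:**
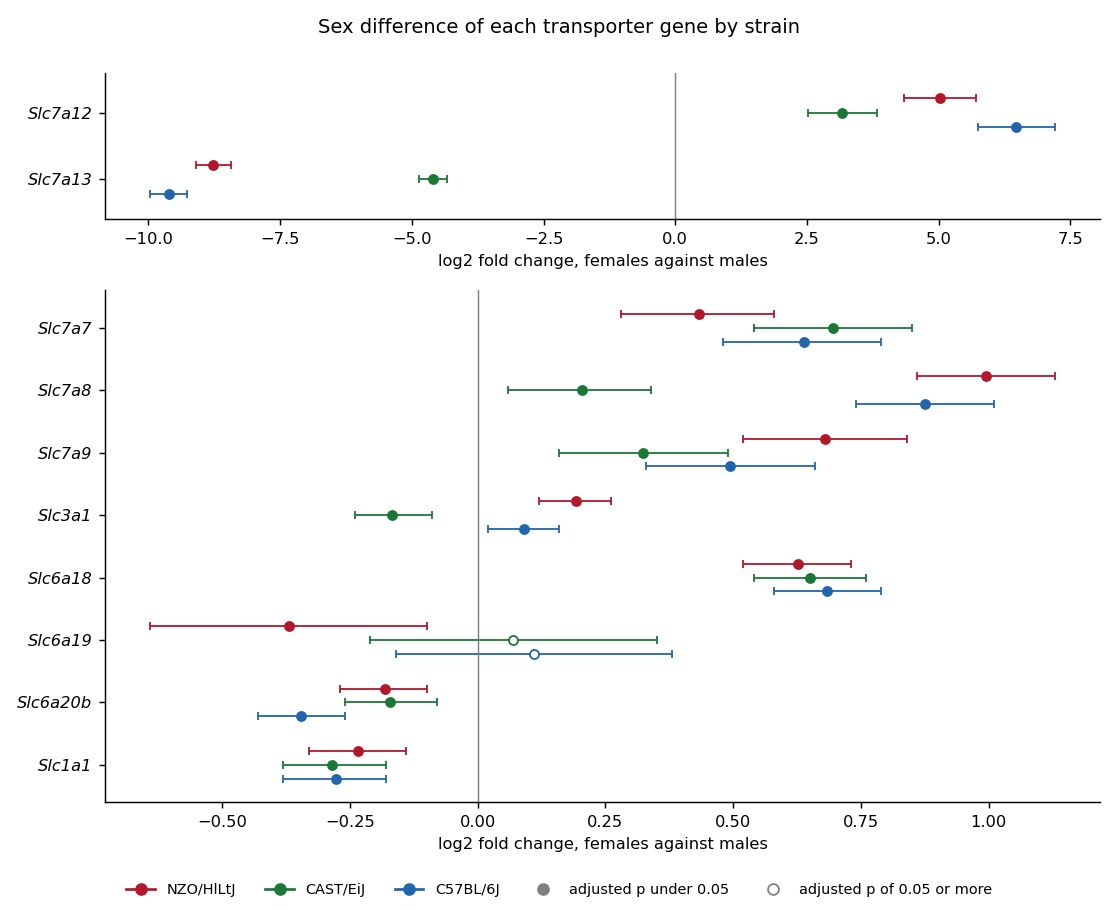
Log2 fold change of females against males for the 10 genes in each strain, with 95% intervals (filled points, adjusted p under 0.05; positive values, higher in females). Slc7a12 and Slc7a13 lay farthest from 0 on opposite sides, at 6.47 and -9.62 in C57BL/6J, and Slc3a1 lay on opposite sides of 0 in CAST/EiJ (-0.17) and the other strains.

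Genes that work with these carriers moved with sex in both directions. Slc3a2, the heavy chain of the basolateral exchangers, rose in NZO/HlLtJ females (log2 fold change 0.49) and C57BL/6J females (0.61), while in CAST/EiJ the value was 0.01 (adjusted p = 0.952). Tmem27, which encodes collectrin, needed to place Slc6a19 in the brush border, fell by 0.29, 0.49 and 0.36 in females of NZO/HlLtJ, CAST/EiJ and C57BL/6J. Over all genes, 22.7% to 25.4% were called in each direction in a strain. Of 29 other amino acid and peptide carriers, 13 rose and 4 fell in NZO/HlLtJ females, 16 rose and 3 fell in CAST/EiJ females, and 14 rose and 4 fell in C57BL/6J females, with medians of 0.34, 0.23 and 0.35. Slc36a1, a proton-coupled carrier, fell by 0.85, 0.70 and 0.57 in the same order of strains, and the neutral exchanger Slc1a5 rose by 0.76, 0.51 and 0.59. Of 8 brush border peptidases, 3 rose and 4 fell in NZO/HlLtJ females, 2 rose and 3 fell in CAST/EiJ females, and 3 rose and 4 fell in C57BL/6J females. Among them Mme (neprilysin) rose by 1.41, 1.33 and 0.76, and Ggt1, which splits glutathione on the brush border, fell by 0.98, 1.22 and 0.97. Among 4 hormone receptor genes the prolactin receptor Prlr rose by 5.53, 2.86 and 5.03 and the oestrogen receptor Esr1 fell by 1.29, 0.35 and 1.51. The female-male differences of CAST/EiJ minus those of C57BL/6J were -2.17 for Prlr and 1.16 for Esr1, so these gaps too were narrower in CAST/EiJ.

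Markers of cell types also moved with sex. All 4 thick ascending limb markers and all 4 podocyte markers were called higher in females in all 3 strains, beside 22.7% to 25.4% of all genes called in each direction. Summed thick ascending limb markers ranged over 4776 to 5406 CPM in NZO/HlLtJ females and 2599 to 3512 in NZO/HlLtJ males, 5723 to 7352 in CAST/EiJ females and 5416 to 6224 in CAST/EiJ males, and 4304 to 5871 in C57BL/6J females and 3717 to 4591 in C57BL/6J males. Summed podocyte markers ranged over 429.5 to 465.4 CPM in NZO/HlLtJ females and 272.8 to 338.7 in NZO/HlLtJ males, 435.5 to 469.9 in CAST/EiJ females and 285.6 to 355 in CAST/EiJ males, and 403.6 to 444.5 in C57BL/6J females and 287.5 to 355.8 in C57BL/6J males. Markers of the proximal tubule itself were mixed, with 3 of 10 higher and 6 lower in NZO/HlLtJ females, 4 higher and 4 lower in CAST/EiJ females and 3 higher and 3 lower in C57BL/6J females. Of 5 markers of the S3 segment, 2, 3 and 2 were higher and 1, 1 and 2 lower in NZO/HlLtJ, CAST/EiJ and C57BL/6J females. Their sum, in which the most abundant markers weigh most, was lower in females of every strain, without overlap. It ranged over 1009 to 1689 CPM in NZO/HlLtJ females and 2574 to 3712 in NZO/HlLtJ males. In CAST/EiJ it was 823.8 to 981.9 in females and 2079 to 3241 in males. In C57BL/6J it was 1079 to 1555 in females and 2956 to 3892 in males. The S3 marker Atp11a had log2 fold changes of -1.78, -2.35 and -1.95, while the S3 marker Slc22a13 rose by 1.39, 0.19 and 1.08. Every marker of these 4 lists passed the filter on low counts, and their part in the differences of the 10 genes was not tested.

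Between strains of the same sex, 9 of the 10 genes were called in at least 1 of 6 comparisons. The share of all genes for that count was not taken, and single comparisons called 37.7% to 61.9% of all genes. In NZO/HlLtJ against C57BL/6J, 7 of the 10 genes were called in females, against 37.7% of all genes, and 4 in males, against 42.6%. In CAST/EiJ against C57BL/6J, 6 were called in females, against 61.9%, and 7 in males, against 60.9%. In NZO/HlLtJ against CAST/EiJ, 9 were called in females, against 60.4%, and 8 in males, against 60.9%. Slc1a1 was called in none of the 6 comparisons by this test, with adjusted p of 0.0739 or more.

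CAST/EiJ stood apart in the pair. Slc7a13 was higher in CAST/EiJ females than in C57BL/6J females by 32.1-fold (SE 0.15 on the log2 scale, adjusted p = 3.77e-26), and lower in NZO/HlLtJ females than in CAST/EiJ females by 4.16 (log2 fold change -4.16, SE 0.14, 17.9-fold, adjusted p = 1.77e-24). In males the difference between CAST/EiJ and C57BL/6J was -0.01 (95% interval -0.24 to 0.23, adjusted p = 0.951), and between NZO/HlLtJ and C57BL/6J it was also -0.01 (95% interval -0.23 to 0.22, adjusted p = 0.982). NZO/HlLtJ females exceeded C57BL/6J females in Slc7a13 by 0.84 (SE 0.17, adjusted p = 0.000174). For Slc7a12 the strains differed in males, with CAST/EiJ above C57BL/6J by 3.45 (SE 0.33, 10.9-fold, adjusted p = 5.63e-11), while in females that difference was 0.14 (95% interval -0.42 to 0.7, adjusted p = 0.68). Slc7a12 was lower in NZO/HlLtJ than in CAST/EiJ males (log2 fold change -2.49, SE 0.32, 5.63-fold, adjusted p = 2.46e-08). In CAST/EiJ males on 44% fat, replicate 4 held 112 CPM of Slc7a12 against 34.9 or less in the other 3, and without it the excess over C57BL/6J males was 3.02. The excess of NZO/HlLtJ over C57BL/6J males in Slc7a12 (0.95, SE 0.33, adjusted p = 0.0203) lost its call without NZO/HlLtJ male replicate 3 on 44% fat, where it was 0.67 (adjusted p = 0.103), and the deficit of NZO/HlLtJ against CAST/EiJ females (-0.64, adjusted p = 0.0481) lost its call in 12 of 16 fits that left out 1 library, with no expression filter (adjusted p = 0.0565) and by DESeq2's Wald test (adjusted p = 0.0693).

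Among the other heteromer genes, Slc7a8 was lowest in NZO/HlLtJ. It was lower in NZO/HlLtJ than in C57BL/6J by 2.47-fold in females (log2 fold change -1.30, SE 0.07, adjusted p = 1.33e-19) and 2.68-fold in males (-1.42, SE 0.07, adjusted p = 7.15e-21), and lower than in CAST/EiJ males by 2.76-fold (-1.46, SE 0.07, adjusted p = 1.71e-21). NZO/HlLtJ and C57BL/6J libraries did not overlap in either sex. Slc7a8 was also lower in CAST/EiJ than in C57BL/6J females (-0.63, SE 0.07, adjusted p = 5.58e-11), while in males the difference was 0.04 (adjusted p = 0.641). Slc3a1 was higher in CAST/EiJ than in C57BL/6J, by 0.49 in females (SE 0.04, 1.4-fold, adjusted p = 1.28e-15) and 0.75 in males (SE 0.04, 1.68-fold, adjusted p = 4.33e-21), with no overlap in either sex. Slc7a7 was likewise higher in CAST/EiJ than in C57BL/6J, by 0.76 in females (SE 0.07, adjusted p = 1.38e-11) and 0.70 in males (SE 0.08, adjusted p = 3.01e-10), again without overlap. The Slc3a2 heavy chain was higher in CAST/EiJ than in C57BL/6J males by 0.77 and lower in NZO/HlLtJ than in CAST/EiJ males by 1.04 (log2 fold change -1.04). Slc7a9 was lower in NZO/HlLtJ than in C57BL/6J, by -0.28 in females (SE 0.08, adjusted p = 0.00521) and -0.46 in males (SE 0.08, adjusted p = 1.07e-05).

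Of the luminal carriers, Slc6a18 was highest in NZO/HlLtJ. It exceeded C57BL/6J by 0.53 in females (SE 0.05, adjusted p = 2.61e-11) and 0.58 in males (SE 0.05, adjusted p = 1.3e-12), and no library of NZO/HlLtJ met one of another strain of the same sex. Slc6a20b was higher in NZO/HlLtJ than in CAST/EiJ by 0.52 in females (adjusted p = 4.03e-14) and 0.53 in males (adjusted p = 8.06e-14), and lower in CAST/EiJ than in C57BL/6J by -0.28 in females (SE 0.04, adjusted p = 1.74e-07) and -0.46 in males (SE 0.04, adjusted p = 5.74e-12). Slc6a19 was lower in NZO/HlLtJ than in C57BL/6J females by -0.49 (SE 0.13, adjusted p = 0.00375), and its excess in CAST/EiJ over C57BL/6J males (0.34, SE 0.14, adjusted p = 0.0351) lost its call in 6 of 15 fits that left out 1 library and with no expression filter (adjusted p = 0.0585). The close copy Slc6a20a was higher than in C57BL/6J in females of both other strains, by 0.78 in NZO/HlLtJ and 0.96 in CAST/EiJ.

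The other amino acid carriers differed between strains in both directions. Of the 29, 10 were higher and 7 lower in NZO/HlLtJ than in C57BL/6J females, against 37.7% of all genes called, and 13 were higher and 5 lower in CAST/EiJ than in C57BL/6J females, against 61.9%, a share near that of all genes. Slc7a2, a carrier of basic amino acids, was lower than in C57BL/6J by -2.42 in NZO/HlLtJ females and -2.34 in CAST/EiJ females. Slc7a5, the light chain of the large neutral amino acid exchanger, was higher in CAST/EiJ than in C57BL/6J by 1.99 in females and 2.12 in males. Of 9 targets of ATF4, the factor of the amino acid shortage response, 6 were called higher in CAST/EiJ than in C57BL/6J males, against 60.9% of all genes called, with a median of 1.98, among them Phgdh (2.44), Psat1 (2.32), Trib3 (2.02) and Asns (1.98). In females 3 were higher and 1 lower, against 61.9% of all genes, with a median of 0.19, and the values were 2.27 for Phgdh, 1.38 for Psat1, 0.38 for Asns and -0.43 for Aldh18a1.

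Diet changed none of the 10 genes beyond the threshold of edgeR's test in any strain or sex. For 44% against 10% fat over both sexes, 0 of the 10 were called in NZO/HlLtJ, against 3.62% of all genes, 0 in CAST/EiJ, against 0.99%, and 0 in C57BL/6J, against 0.0266%. At an unadjusted p under 0.05 the counts were 3, 4 and 1, limma on the deposited log2 values called 0 in each, and DESeq2's Wald test called 1 in each. Within 1 sex the counts were also 0, against 0.149% of all genes in NZO/HlLtJ females, 3.51% in NZO/HlLtJ males, 0.144% in CAST/EiJ females, 0.58% in CAST/EiJ males, 0% in C57BL/6J females and 0.00532% in C57BL/6J males. At an unadjusted p under 0.05 those counts were 1, 3, 2, 4, 1 and 0, and DESeq2's Wald test called 1 gene in C57BL/6J females and 0 in the others, with limma at 0 in all 6.

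Slc7a8 came nearest to the threshold in NZO/HlLtJ and CAST/EiJ, in opposite directions. It averaged 170.3 ± 16.9 CPM on 44% fat and 147.1 ± 21.2 on 10% fat in NZO/HlLtJ females, and 85.3 ± 10.6 on 44% fat and 73.6 ± 3.75 on 10% fat in NZO/HlLtJ males. CAST/EiJ females averaged 225.4 ± 10.7 CPM on 44% fat and 276.5 ± 32.3 on 10% fat, and CAST/EiJ males 200.5 ± 13.2 on 44% fat and 233.9 ± 34.2 on 10% fat (SD, n = 4 each, 3 for CAST/EiJ males on 10% fat). The diet groups overlapped in each case. The log2 fold change over both sexes was 0.21 in NZO/HlLtJ (95% interval 0.08 to 0.35, adjusted p = 0.0598), -0.25 in CAST/EiJ (95% interval -0.39 to -0.11, adjusted p = 0.0658) and -0.03 in C57BL/6J. The diet effect of NZO/HlLtJ minus that of CAST/EiJ was 0.46 (SE 0.10, adjusted p = 0.00967), and it kept its call in all 31 fits that left out 1 library.

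Slc6a18 was the other gene whose diet effect differed between these strains, by -0.28 (SE 0.07, adjusted p = 0.0411). It averaged 1243 ± 36 CPM on 44% fat and 1414 ± 104 on 10% fat in NZO/HlLtJ females, and 703.8 ± 10.6 on 44% fat and 595.2 ± 70.7 on 10% fat in CAST/EiJ males, with no overlap in either. In the other sex of each strain the diets overlapped, at 843.6 CPM on 44% fat and 873.4 on 10% fat in NZO/HlLtJ males, and 1057 on 44% fat and 978.3 on 10% fat in CAST/EiJ females. That call was lost in 16 of 31 fits that left out 1 library (adjusted p between 0.0101 and 0.115), and when only these strains were fitted (adjusted p = 0.0596). Of all genes, 1.28% were called in this comparison. In NZO/HlLtJ only the ID run beginning 77 held both diets within a sex, so diet values there rest on that run and on the additive run term.

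The C57BL/6J difference nearest to the threshold was that of Slc7a13 in females. The 4 libraries on 44% fat held 2.82, 1.76, 2.07 and 1.54 CPM, and the 4 on 10% fat held 0.614, 0.511, 1.31 and 0.959. No library of one diet met one of the other, at levels that are a trace of those in males. The log2 fold change was 1.26 (SE 0.26, adjusted p = 0.166), and DESeq2's Wald test gave an adjusted p of 1.82e-05. Slc7a12, by contrast, averaged 249.8 ± 50.4 CPM on 44% fat and 335.1 ± 11.9 on 10% fat in NZO/HlLtJ females, without overlap, and its log2 fold change of -0.33 had an SE of 0.40 (adjusted p = 0.873). The diets also did not overlap for Slc3a1 in NZO/HlLtJ females and Slc7a13 in CAST/EiJ males, lower on 44% fat. The same held for Slc6a20b in CAST/EiJ males, higher on 44% fat. The share of all genes without overlap between diets was not counted.

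**Figure D5:**
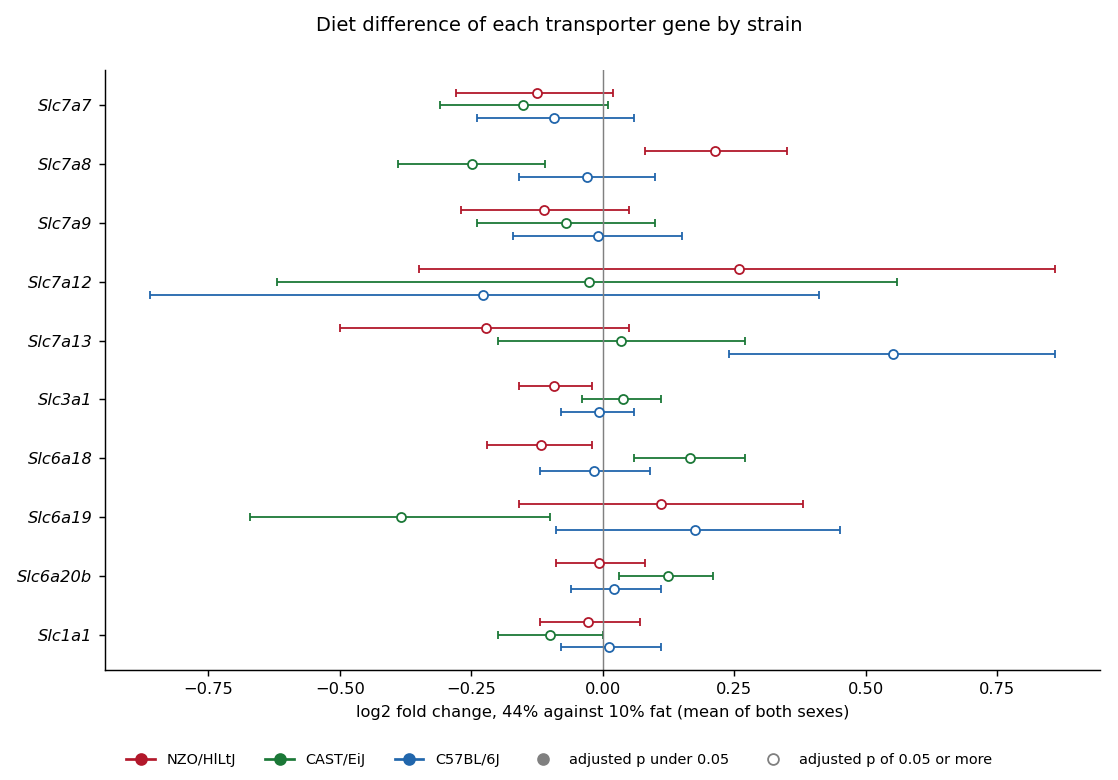
Log2 fold change of 44% against 10% fat over both sexes for the 10 genes in each strain, with 95% intervals (open points, adjusted p of 0.05 or more; positive values, higher on 44% fat). All points are open, and Slc7a8 lay above 0 in NZO/HlLtJ (0.21) and below 0 in CAST/EiJ (-0.25).

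In tests of whether the diet effect differed between strains, 0 of the 10 genes were called for NZO/HlLtJ minus C57BL/6J, against 0.0373% of all genes, and 0 for CAST/EiJ minus C57BL/6J, against 0.0532%. At an unadjusted p under 0.05 the counts were 2 and 4, DESeq2's Wald test called 1 and 0, and limma called 0 in both. The diet effect differed between the sexes for 0 of the 10 genes in NZO/HlLtJ, CAST/EiJ and C57BL/6J, against 0.00532%, 0.0479% and 0% of all genes by edgeR's test, with 0, 0 and 1 at an unadjusted p under 0.05, 0, 0 and 1 by DESeq2 and 0 in each by limma. Of the 29 other carriers, 3 rose and 2 fell on 44% fat in NZO/HlLtJ, against 3.62% of all genes called in either direction. Slc43a2 (0.35), Slc38a3 (0.75) and Slc16a10 (0.22) were higher, and Slc1a4 (-0.47) and Slc6a15 (-0.72) were lower. The heavy chain Slc3a2 rose by 0.18 in NZO/HlLtJ (adjusted p = 0.0479).

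Across the 12 group means, the genes whose pattern was most like that of Slc7a13, by Pearson correlation of log2 levels, were Chst11 (0.9929), Timd2 (0.9874) and Galns (0.9794). For Slc7a12 they were Slc39a5 (0.9783), Mgat4a (0.9735) and Chst15 (0.9725), and for Slc7a8 they were Pdgfra (0.9655), F2rl1 (0.9587) and Pdk1 (0.9496). These are descriptions over 12 points that share libraries, depth and the study's groups, searched among 2178 genes.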

How the data were processed

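Kidney RNA of 47 mouse libraries was measured by paired-end sequencing of polyadenylated RNA, in 12 groups of strain, sex and diet taken from the labels. The authors deposited 2 tables of 22474 genes: expected counts per gene (20.6% of them more than 0.001 from a whole number), rounded here, and variance-stabilized values on a log2 scale. The submitters' processing notes name GRCm38 and DESeq2, and the aligner, the counter and its use of strand are not given in the sources used here. Loci are those of the deposited annotation columns.

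edgeR 4.0.16 (R 4.3.3) fitted 12 group means and an additive term for the ID run to all libraries (TMM scaling with factors of 0.89 to 1.11, robust quasi-likelihood test, 33 residual degrees of freedom). The default expression filter set aside 3688 genes, and p-values were adjusted over the 18786 left. Logged CPM used a prior count of 1. Library totals ran from 34394546 to 58433712 counts. The code was tested on simulated data. Alternatives were DESeq2 size factors, no expression filter, DESeq2 1.42.0 (Wald test), no ID run term, only the strains compared, limma 3.58.1 on the deposited log2 values, and leaving out each library.

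The 10 genes and all lists were chosen with earlier results of these data known. Every one of the 10 genes was named, and of each list up to 4 genes with the smallest adjusted p in a comparison, with further genes where a count of 5 or fewer is spelled out. Shared 31-base stretches were counted in GENCODE M21 transcripts.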

Additional observations from a re-analysis of the deposited data

Results flagged for a closer look

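In 6 of the 110 groups of 4 libraries (a gene in 1 strain, sex and diet), a library stood far from the other 3 relative to the group's range. The flags of Slc7a12 were all in males, in each strain, and their cause was not tested. Slc7a12 held 112 CPM in CAST/EiJ males on 44% fat, replicate 4, with 34.9 the next value, 11.2 in C57BL/6J males on 10% fat, replicate 2, with 4.17 the next, and 4.72 in NZO/HlLtJ males on 10% fat, replicate 1, the lowest, with 6.87 the next. Slc7a13 held 820 CPM in C57BL/6J males on 44% fat, replicate 4, the lowest, with 958 the next. Slc7a8 held 421 CPM in C57BL/6J females on 44% fat, replicate 4, with 379 the next, and Slc7a9 held 173 in CAST/EiJ females on 10% fat, replicate 3, with 147 the next.

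The sex difference differed between strains in 11 tests of the difference itself. For CAST/EiJ minus C57BL/6J the log2 value was 5.01 for Slc7a13, -3.31 for Slc7a12, -0.67 for Slc7a8 and -0.26 for Slc3a1. For NZO/HlLtJ minus CAST/EiJ it was -4.17 for Slc7a13, 1.85 for Slc7a12, 0.79 for Slc7a8, 0.36 for Slc7a9 and 0.36 for Slc3a1. For NZO/HlLtJ minus C57BL/6J it was 0.85 for Slc7a13 and -1.45 for Slc7a12. The diet effect differed between NZO/HlLtJ and CAST/EiJ by 0.46 for Slc7a8 and -0.28 for Slc6a18.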

How the results depend on the processing

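No called difference of the 10 genes changed its direction under any alternative run. The counts of genes called by sex in each strain stayed within 1.5 times under every alternative, at 9 to 10, 8 to 9 and 8 to 9 of 10 in NZO/HlLtJ, CAST/EiJ and C57BL/6J when each library was left out. DESeq2's Wald test called 1 gene in place of 0 for diet in NZO/HlLtJ, CAST/EiJ, C57BL/6J and C57BL/6J females, for the diet effect of NZO/HlLtJ minus C57BL/6J and for that of females minus males in C57BL/6J. Without the ID run term diet called 1 gene in CAST/EiJ. The sex difference of NZO/HlLtJ minus C57BL/6J called 1 gene in place of 2 with no expression filter (Slc7a13, with Slc7a12 lost) and by limma on the deposited log2 values (Slc7a12, with Slc7a13 lost), and the diet effect of NZO/HlLtJ minus CAST/EiJ called 1 in place of 2 when only those strains were fitted. The causes were not tested. Leaving out 1 library gave 0 to 1 genes for diet in NZO/HlLtJ, CAST/EiJ, NZO/HlLtJ males and CAST/EiJ males (Slc7a8 called without NZO/HlLtJ females on 10% fat replicate 1, NZO/HlLtJ males on 44% fat replicate 2, CAST/EiJ females on 10% fat replicate 2 or CAST/EiJ males on 10% fat replicate 3, and Slc6a18 without CAST/EiJ males on 10% fat replicate 1), and 1 to 2 for those 2 differences between strains.

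Over all genes, counts called by diet depended on the setting. NZO/HlLtJ gave 680, against 254 when fitted alone and 319 to 1002 when 1 library was left out. CAST/EiJ gave 186, against 432 by DESeq2's Wald test and 51 when fitted alone, and C57BL/6J gave 5, against 15 and 0. Leaving out 1 library gave 62 to 330 in CAST/EiJ and 0 to 13 in C57BL/6J. The counts were, with ranges over the other alternatives that moved them, 28 in NZO/HlLtJ females (0 to 133), 659 in NZO/HlLtJ males (100 to 1053), 27 in CAST/EiJ females (0 to 66), 109 in CAST/EiJ males (29 to 286), 0 in C57BL/6J females (15) and 1 in C57BL/6J males (0 to 4), and with 1 library left out they ran over 2 to 77, 106 to 1044, 3 to 74, 29 to 177, 0 to 10 and 1 to 7. The diet effect differed between strains for 241 genes (62 to 506) for NZO/HlLtJ minus CAST/EiJ, 7 (0 to 22) for NZO/HlLtJ minus C57BL/6J and 10 (0 to 35) for CAST/EiJ minus C57BL/6J, and between sexes for 1 (0 to 29), 9 (0 to 29) and 0 (1) in NZO/HlLtJ, CAST/EiJ and C57BL/6J. With 1 library left out these ran over 110 to 343, 0 to 21 and 0 to 20 between strains, and 0 to 5, 0 to 18 and 0 to 1 between sexes. Counts by sex and by strain stayed within 1.5 times under the same alternatives. Leaving out 1 library aside, no setting moved the median log2 fold change of all genes by more than 0.032.

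No paired analysis was possible because the labels give no replicate numbers. The precision of diet effects is limited by the 4 libraries a group and, in NZO/HlLtJ, by ID runs that mostly hold 1 diet of each sex. Slc7a13 in females rests on few counts, 28 in the lowest library.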
